A study of Mus musculus with 38 samples.

Results

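The genes described here are 7 members of 2 families of the mitochondrial and fatty acid machinery, the uncoupling proteins Ucp2 and Ucp3 and the acyl-CoA thioesterases Acot1, Acot2, Acot7, Acot9 and Acot13, out of 29564 genes in the deposited tables. They were picked by name with earlier results of these libraries known, and the expression values of the 4 groups took part in that choice. Their differences are therefore given as a description, and an adjusted p printed beside one of them places the gene among all genes of the same fit and is not independent evidence for it. All 7 members passed the filter on low counts.

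RNA was measured in the left ventricle of 38 wild-type mice, 1 library per mouse. The strain is labelled C57BL6, and the methods of the study give its substrain J. The age at sampling was not given in the sources used here. HFpEF stands for heart failure with preserved ejection fraction, produced in these mice by feeding fat and giving L-NAME, a blocker of nitric oxide synthesis. The non_failing mice (n = 8) were without the HFpEF regimen and are labelled as given vehicle. HFpEF+Veh (n = 8) were HFpEF mice on vehicle, HFpEF+TYA-018 (n = 11) received an inhibitor of the deacetylase HDAC6, and HFpEF+SGLT2i (n = 11) received empagliflozin, which blocks glucose reabsorption by SGLT2 in the kidney. Drugs and vehicle were given orally once a day, for 3 months according to the title of the series, to mice in which the disease was already established. For its comparison of both drugs in this model the study gives a shorter treatment, counted in weeks. The HFpEF groups share the regimen and differ in what was dosed, and the comparisons that involve HFpEF+Veh share its libraries. Libraries are named by mouse number, such as V2523. The labels give female mice and the methods of the study male mice, and the 4 Y-linked genes listed summed to at least 42.1 TPM in every library.

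Uncoupling proteins are carriers of the mitochondrial inner membrane. Ucp1 dissipates the proton gradient as heat in brown fat, while Ucp3 of skeletal muscle and heart and the widely expressed Ucp2 are linked to fatty acid use and to limiting reactive oxygen species. Acyl-CoA thioesterases split a fatty acyl-CoA into the free fatty acid and coenzyme A. Acot1 works in the cytosol and Acot2 in the mitochondrial matrix, and both act on long-chain acyl-CoA and are textbook targets of the nuclear receptor PPARα. Acot7 is the long-chain enzyme best known from brain, Acot9 is mitochondrial, and Acot13, also called Them2, is associated with mitochondria and forms a complex with a phosphatidylcholine transfer protein.

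Both families have neighbours on the chromosome. They are shown because within groups Acot1 and Acot2 moved together (Pearson r 0.87) and Ucp2 and Ucp3 did not (0.12). Over all libraries these values were 0.93 and 0.42. On GRCm38, with positions from GENCODE M21, Ucp3 (chr7:100472990-100486432) and Ucp2 (chr7:100493337-100502020) lie on the plus strand with 6904 bases between them. Acot2 (chr12:83987861-83993873) and Acot1 (chr12:84009490-84018371) lie on the plus strand 15616 bases apart and are followed by Acot4, Acot3, Acot5 and Acot6 on the same strand. Acot7 (chr4:152178134-152271855) and Acot9 (chrX:155262443-155297654) are on the plus strand, and Acot13 (chr13:24817948-24831540) is on the minus strand.

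RefSeq promoter sequence on GRCm38.p6 was at hand for 6 of the 7 members, and for Acot13 none was given. The 250 bases before the start site are printed 5′ to 3′ for Ucp3, the member with the largest called difference from vehicle under both drugs, and for Acot2 and Acot1, the pair that followed each other most closely. In Ucp3 capitals mark the 6 bases AGGTCA, a half-site recognised by many nuclear receptors, and in Acot2 and Acot1 capitals mark the longest run that both windows share, of 9 bases.
Ucp3, chr7:100472741-100472990, plus strand: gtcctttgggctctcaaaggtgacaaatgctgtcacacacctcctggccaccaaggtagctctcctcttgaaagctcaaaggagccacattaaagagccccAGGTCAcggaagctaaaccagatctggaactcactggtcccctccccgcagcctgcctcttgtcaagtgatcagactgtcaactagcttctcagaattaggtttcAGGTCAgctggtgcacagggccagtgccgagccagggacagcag
Acot2, chr12:83987611-83987860, plus strand: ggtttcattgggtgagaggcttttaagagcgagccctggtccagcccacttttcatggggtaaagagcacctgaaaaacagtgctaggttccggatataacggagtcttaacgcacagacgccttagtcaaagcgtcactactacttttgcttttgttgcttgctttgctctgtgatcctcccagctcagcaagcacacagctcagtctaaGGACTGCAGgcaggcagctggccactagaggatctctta
Acot1, chr12:84009252-84009501, plus strand: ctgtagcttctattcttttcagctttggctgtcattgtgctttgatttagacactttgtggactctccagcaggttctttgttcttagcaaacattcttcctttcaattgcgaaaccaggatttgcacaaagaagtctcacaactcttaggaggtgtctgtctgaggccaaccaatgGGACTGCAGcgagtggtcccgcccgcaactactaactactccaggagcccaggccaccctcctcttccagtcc
AGGTCA was searched on both strands (TGACCT on the other), and Ucp3 held 2 matches, starting 149 and 44 bases before the start site. At least 1 match was present in 14% of 32851 promoter windows of that length, and at least 2 in 1.36%. The windows of Ucp2, Acot1, Acot2, Acot7 and Acot9 held none, and a direct repeat of AGGTCA with any 1 base between the copies, present in 0.0335% of all windows on either strand, was in no member's window. A match is a description of letters and not a binding site, and the absence of one covers only these windows. In a global alignment the Acot2 and Acot1 windows were identical at 47.7% of columns, within the 45.1 to 53.3% seen over the 15 pairs formed by the windows of Acot2, Acot1, Acot4, Acot3, Ucp3 and Ucp2. The longest shared runs over these pairs measured 7 to 11 bases, so the run of 9 is not particular to Acot2 and Acot1.

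Library totals ran from 21451631 to 59280407 counts. Members had between 48.5 counts (Acot1, non_failing V2507) and 14829 counts (Acot13) in a library. A few libraries stood apart. HFpEF+Veh V2523 carried liver transcripts, with 10 of 10 hepatocyte markers tested and a summed level of 1272 TPM against at most 48.2 TPM in the other vehicle libraries, and the next highest sum over all groups was 322 TPM in non_failing V2504. The hepatocyte sum had medians of 76.9 TPM in non_failing, 27.0 TPM in HFpEF+Veh, 18.2 TPM in HFpEF+TYA-018 and 19.5 TPM in HFpEF+SGLT2i. Against non_failing 9 of the 10 markers were called lower under TYA-018 and 8 under empagliflozin, and without V2523 9 were called lower in HFpEF+Veh (median log2 fold change -3.36). HFpEF+Veh V2529 had the highest summed level of 6 erythrocyte genes, 41877 TPM. HFpEF+SGLT2i V2571 had the highest macrophage (318 TPM) and endothelial (768 TPM) marker sums of its group and the lowest cardiomyocyte sum (20388 TPM). Members' differences past the threshold that involve HFpEF+Veh are given with and without V2523. In tissue RNA a lower level can come from fewer cells of a type or from less RNA per cell, and these cannot be told apart.

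TPM values are scaled to the library and corrected for transcript length and allow levels to be compared between genes. On that scale Acot13 was the most abundant member, with group medians of 264 to 319 TPM. Acot2 (18.3 to 43.1 TPM) and Acot7 (26.7 to 29.9 TPM) came next, followed by Ucp3 (9.72 to 27.2 TPM), Ucp2 (9.62 to 15.9 TPM) and Acot9 (8.10 to 9.87 TPM). Acot1 was the lowest, with 1.36 to 6.10 TPM. The brown fat carrier Ucp1 had between 0 and 5 counts in any library, and its group medians were 0 TPM, so Ucp2 and Ucp3 were the abundant members of the family here.

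**Figure D1:**
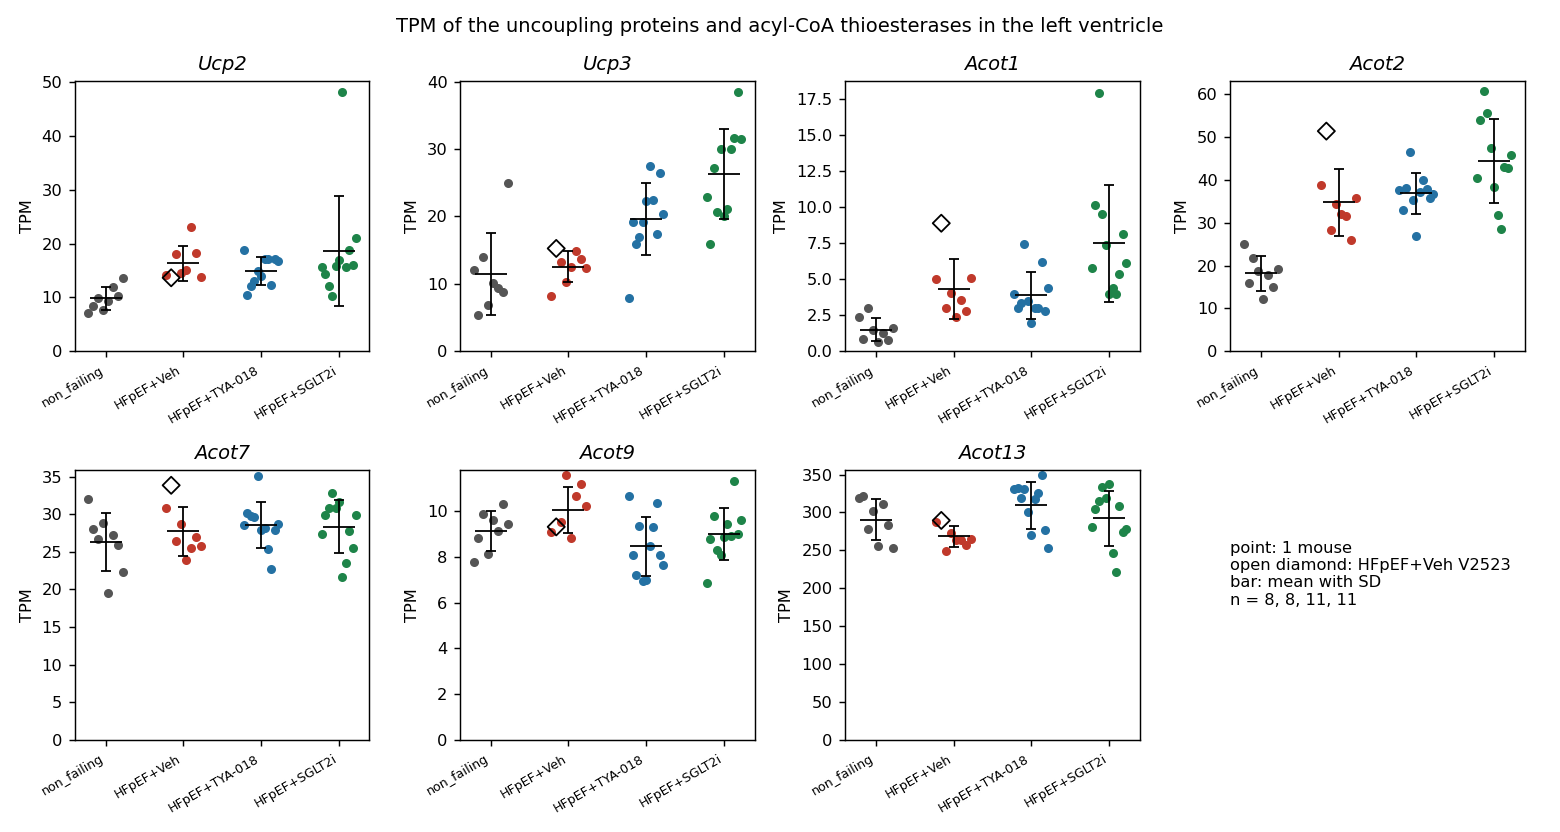
TPM of the 7 members (y axes, linear from 0) in the 4 groups (x axes), with 1 point per mouse, an open diamond for HFpEF+Veh V2523 and bars for the mean and SD (n = 8, 8, 11 and 11). All 11 HFpEF+SGLT2i values of Ucp3 lie above all 8 HFpEF+Veh values, and all 30 HFpEF values of Acot2 lie above the 8 non_failing values.

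Ucp3 did not pass the test between vehicle-treated HFpEF hearts and non_failing hearts and was higher under both drugs. In non_failing it ranged from 5.38 to 24.9 TPM with a median of 9.72 TPM. In HFpEF+Veh it ranged from 8.24 to 15.2 TPM with a median of 12.9 TPM. These groups overlapped almost wholly, although the single highest non_failing mouse, V2510, stood far above the other 7, which reached at most 13.9 TPM. In HFpEF+TYA-018 the range was 7.90 to 27.5 TPM with a median of 19.2 TPM. In HFpEF+SGLT2i it was 15.96 to 38.4 TPM with a median of 27.2 TPM. On the TPM scale 10 of 11 mice under TYA-018 exceeded every vehicle mouse and the remaining mouse, V2543, was below them all. Under empagliflozin all 11 exceeded every vehicle mouse. In CPM, the library-scaled counts of the fit, V2543 (23.1) lay above vehicle mouse V2521 (21.9). Only 2 of 13765 genes tested (0.0145%) had TPM ranges without overlap in the comparison of empagliflozin with vehicle, and 14 (0.102%) in that of TYA-018 with vehicle.

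In edgeR's quasi-likelihood test Ucp3 was 1.72-fold higher under TYA-018 than under vehicle (log2 fold change 0.79, SE 0.21, 95% interval 0.37 to 1.21, adjusted p 0.0370). It was 2.25-fold higher under empagliflozin (log2 fold change 1.17, SE 0.21, 95% interval 0.75 to 1.59, adjusted p 0.00129). Between HFpEF+Veh and non_failing the log2 fold change was 0.04 (SE 0.22, 95% interval -0.40 to 0.48, adjusted p 0.952), without V2510 it was 0.27, and without V2523 -0.0049. Its sign turned when V2502, V2504, V2509 or V2523 was left out, so these groups have no firm order. The mean level was highest under empagliflozin (26.3 TPM) and next under TYA-018 (19.6 TPM), with 12.5 TPM under vehicle (12.2 TPM without V2523) and 11.4 TPM in non_failing. The 2 drugs differed by a log2 fold change of -0.38 for TYA-018 against empagliflozin (95% interval -0.76 to -0.01, adjusted p 0.367), which did not pass the threshold of 0.05. Without V2523 the log2 fold changes over vehicle were 0.84 for TYA-018 (adjusted p 0.0441) and 1.22 for empagliflozin (adjusted p 0.0264). In that fit Ucp3 was 1 of only 2 genes called between empagliflozin and vehicle (0.0145% of 13801), the other being Pdk4, against 117 with the library (0.85%). For TYA-018 196 genes (1.42%) were called in that fit, against 266 (1.93%) with the library.

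The 2 calls of Ucp3 differed in how far they depended on the processing. Under empagliflozin the call held in all 38 fits that left out 1 library, with adjusted p between 9.05e-04 and 0.0264. Under TYA-018 adjusted p ranged from 0.00924 to 0.0735, and the call was lost in 10 of the 38, at adjusted p of 0.0517 or more, when V2521, V2527, V2528, V2530 or V2532 of the vehicle group or V2546, V2549, V2551, V2552 or V2559 of the TYA-018 group was left out. With limma on log2(TPM + 1), with genes of the mitochondrial genome left out and TPM rescaled, the log2 differences were 0.60 (adjusted p 0.132) and 1.035 (adjusted p 0.104), and no gene at all was called for empagliflozin. Within groups (38 libraries) the Pearson r of Ucp3 with summed markers was -0.39 for white adipocytes, a list of 8 of which 1 passed the filter on low counts, -0.33 for cardiomyocytes, -0.28 for macrophages and leukocytes, -0.24 for skeletal muscle, -0.03 for hepatocytes, 0.03 for endothelium, 0.05 for fibroblasts and 0.10 for the atrial list. Against vehicle the 5 tested skeletal muscle markers had a median log2 fold change of -1.16 under TYA-018, with 1 called lower, and of -1.53 under empagliflozin, with 2 called lower (1 and 0 without V2523). The skeletal muscle sum ranged from 1027 to 1300 TPM under vehicle, from 1048 to 1271 TPM under TYA-018 and from 890 to 1566 TPM under empagliflozin. The 6 erythrocyte genes had medians of -0.11 and -0.88 in these comparisons, with 0 called and 0 and 5 at an unadjusted p under 0.05. All 10 hepatocyte markers were called lower under both drugs (medians -6.52 and -6.09). Without V2523 2 were called lower under TYA-018 and 0 under empagliflozin (medians -2.67 and -1.56). Of 8 fibroblast markers 8 and 7 had a log2 fold change below 0 (medians -0.23 and -0.21), with 0 called. The part of these lists in the Ucp3 result was not tested.

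Ucp2 followed another course, with higher medians in all 3 HFpEF groups than in non_failing hearts and no difference between drugs and vehicle that passed the test. In non_failing it ranged from 7.02 to 13.7 TPM with a median of 9.62 TPM. In HFpEF+Veh it ranged from 13.6 to 23.1 TPM with a median of 14.8 TPM. In TPM the ranges touched at a single pair of mice, since 7 of 8 vehicle mice lay above all non_failing mice. In CPM they overlapped more, with vehicle mice V2521 (51.6), V2523 (47.9) and V2532 (50.2) below non_failing V2510 (52.5). HFpEF+TYA-018 ranged from 10.4 to 18.8 TPM (median 14.8 TPM), and HFpEF+SGLT2i from 10.2 to 48.2 TPM (median 15.9 TPM). Both treated groups overlapped with vehicle. In HFpEF+SGLT2i the highest mouse was V2571, far above vehicle, and without it the maximum was 21.0 TPM.

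The log2 fold change of Ucp2 between HFpEF+Veh and non_failing was 0.67 (SE 0.20, 95% interval 0.26 to 1.08), with an edgeR adjusted p of 0.0591, just outside the threshold. Without V2523, the vehicle mouse with the lowest Ucp2, it was 0.72 with an adjusted p of 0.0359, in a fit that called 620 genes (4.49%) against 433 (3.15%) with the library. Leaving out V2510, V2532, V2564 or V2571 also brought the adjusted p below the threshold (0.00352 to 0.0477 over these fits and that without V2523), and leaving out V2529, the vehicle mouse with the highest Ucp2 and erythrocyte sum, raised it to 0.135 at a log2 fold change of 0.59. DESeq2 gave an adjusted p of 0.0263 and limma on log2(TPM + 1) 0.0406. Both treated groups differed from non_failing past the threshold, with log2 fold changes of 0.68 for HFpEF+TYA-018 (adjusted p 0.0212) and 0.89 for HFpEF+SGLT2i (adjusted p 0.00250). The first of these calls was lost with limma on log2(TPM + 1), at an adjusted p of 0.0583, and on log2(TPM + 0.1), at 0.0523.

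Neither drug differed from vehicle in Ucp2 past the threshold. The log2 fold change was 0.01 for TYA-018 (95% interval -0.37 to 0.39) and 0.22 for empagliflozin (95% interval -0.16 to 0.60), and without V2571 the latter was -0.02. Without V2523 these values were -0.03 and 0.17. Within groups the level of Ucp2 went with the summed endothelial markers at a Pearson r of 0.64, with the macrophage and leukocyte markers at 0.43, with the erythrocyte genes at 0.50 and with the cardiomyocyte markers at -0.63 (38 libraries). Over the same groups the endothelial sum ranged from 364 to 639 TPM in non_failing, from 409 to 649 TPM in HFpEF+Veh, from 329 to 519 TPM in HFpEF+TYA-018 and from 343 to 768 TPM in HFpEF+SGLT2i, with medians of 472, 535, 450 and 418 TPM. The macrophage sum ranged from 118 to 251, 186 to 334, 131 to 334 and 176 to 318 TPM in the same order. The erythrocyte sum had medians of 5842, 9124, 12452 and 6646 TPM, within ranges of 3786 to 8147, 5780 to 41877, 4811 to 22935 and 4720 to 16043 TPM. Between HFpEF+Veh and non_failing the 6 erythrocyte genes had a median log2 fold change of 1.27, with 0 called and all 6 at an unadjusted p under 0.05, and 4 were called higher without V2523. All 8 endothelial and 11 of 12 macrophage markers were in the tables and tested, none of those tested was at 0 in a whole group, and 0 macrophage markers were called between HFpEF+Veh and non_failing (2 at an unadjusted p under 0.05). HFpEF+SGLT2i V2571, with the highest Ucp2, had the highest endothelial, macrophage and erythrocyte sums of its group and the lowest cardiomyocyte sum. The r values of Ucp2 were not computed without this library. The part of these cell types in the Ucp2 result was not tested.

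Acot2 and Acot1, which release fatty acids from coenzyme A in the matrix and the cytosol, were both higher in HFpEF. Acot2 ranged from 12.2 to 25.1 TPM in non_failing (median 18.3 TPM). It ranged from 26.0 to 51.4 TPM in HFpEF+Veh (median 33.2 TPM), where the highest mouse was V2523 and the next reached 38.8 TPM. HFpEF+TYA-018 ranged from 26.9 to 46.5 TPM (median 37.3 TPM) and HFpEF+SGLT2i from 28.5 to 60.7 TPM (median 43.1 TPM). In TPM no mouse of any HFpEF group was as low as the highest non_failing mouse, while the 3 HFpEF groups overlapped with each other. In CPM HFpEF+Veh V2530 (51.9) lay below non_failing V2501 (56.1). TPM ranges without overlap between HFpEF+Veh and non_failing were seen for 80 of the genes tested (0.581%), between TYA-018 and non_failing for 0.872% and between empagliflozin and non_failing for 0.719%.

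Acot2 was 1.76-fold higher in HFpEF+Veh than in non_failing (log2 fold change 0.81, SE 0.14, 95% interval 0.53 to 1.10, edgeR adjusted p 4.86e-04). Without V2523 the log2 fold change was 0.71 (adjusted p 0.00114). Over the 38 fits that left out 1 library the adjusted p ranged from 1.15e-04 to 0.00224. The treated groups were further from non_failing, at log2 fold changes of 1.05 for TYA-018 and 1.26 for empagliflozin (adjusted p 1.18e-06 and 3.48e-08). Against vehicle the log2 fold changes were 0.24 (95% interval -0.02 to 0.50, adjusted p 0.335) and 0.44 (95% interval 0.18 to 0.71, adjusted p 0.112), neither past the threshold. Without V2523 they were 0.34 (adjusted p 0.132) and 0.54 (adjusted p 0.123). The second passed it only when V2571 or V2572 was left out (adjusted p 0.0443 and 0.0462). Within groups Acot2 went with the summed endothelial markers at a Pearson r of -0.73, with the white adipocyte list at 0.73, with the cardiomyocyte markers at 0.56 and with the hepatocyte markers at 0.42 (38 libraries). The white adipocyte sum ranged from 604 to 1062, 567 to 794, 611 to 1025 and 528 to 928 TPM in non_failing mice and under vehicle, TYA-018 and empagliflozin. Its 1 tested gene, the lipoprotein lipase gene Lpl, was called lower in HFpEF+Veh than in non_failing (log2 fold change -0.38, adjusted p 0.0300), where Acot2 was higher. In the same comparison 2 of 8 fibroblast markers (median log2 fold change 0.26) and 2 of 5 skeletal muscle markers (median 1.48) were called higher. Of 5 tested brown adipocyte markers 2 were called higher (median 0.008), and of 10 cardiomyocyte markers 4 were called lower (median -0.31). The part of these cell types in the differences of Acot2, hepatocyte markers being lower in the treated groups than in non_failing, was not tested.

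Acot1 was the less abundant of the pair, and its fold changes against non_failing were larger than those of Acot2 in all 3 HFpEF groups. It ranged from 0.656 to 2.99 TPM in non_failing (median 1.36 TPM) and from 2.37 to 8.89 TPM in HFpEF+Veh (median 3.79 TPM). HFpEF+TYA-018 ranged from 1.97 to 7.44 TPM (median 3.35 TPM) and HFpEF+SGLT2i from 3.95 to 17.9 TPM (median 6.10 TPM). Empagliflozin mice all lay above the non_failing range, whereas 6 of 8 vehicle mice and 8 of 11 TYA-018 mice did. The vehicle maximum was again V2523, and the other 7 vehicle mice stopped at 5.10 TPM.

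Between HFpEF+Veh and non_failing Acot1 was 2.72-fold higher (log2 fold change 1.44, SE 0.32, 95% interval 0.80 to 2.09, edgeR adjusted p 0.00620), and without V2523 the log2 fold change was 1.22 (adjusted p 0.0156). Between HFpEF+SGLT2i and non_failing it was 5.06-fold higher (log2 fold change 2.34, SE 0.31, adjusted p 2.38e-06), and between HFpEF+TYA-018 and non_failing 2.71-fold higher (log2 fold change 1.44, SE 0.30, adjusted p 0.00201). For TYA-018 against vehicle the log2 fold change was -0.01, with an interval of -0.58 to 0.57, and it was 0.22 without V2523. Empagliflozin against vehicle gave 0.90 (95% interval 0.32 to 1.48, adjusted p 0.165), and 1.12 without V2523 (adjusted p 0.141). The difference between the drugs was -0.90 for TYA-018 against empagliflozin (95% interval -1.43 to -0.38), with an adjusted p of 0.110 in edgeR and 0.0411 in DESeq2. Without V2563, the highest empagliflozin mouse, it was -0.70 (edgeR adjusted p 0.227). Within groups Acot1 went with the white adipocyte list at a Pearson r of 0.70, with the endothelial markers at -0.62 and with the hepatocyte markers at 0.42 (38 libraries), and their part in its differences was not tested.

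Acot1 and Acot2 share sequence, so that the division of reads between them is an estimate. Of the 31-base words in the annotated transcripts of Acot1, 22.7% also occur in another gene, most of them in Acot2 (16.7%), and of those of Acot2 37.3%, most of them in Acot1 (29.9%). The deposited counts of both were fractional, by more than 0.01, in all 38 libraries. Summed to 1 row before the fit, the pair gave a log2 fold change of 0.87 for HFpEF+Veh against non_failing (adjusted p 7.57e-04), 0.21 for TYA-018 against vehicle (adjusted p 0.461) and 0.50 for empagliflozin against vehicle (adjusted p 0.101). Acot1 made up a median of 6.91% of the pair's TPM in non_failing, 10.3% in HFpEF+Veh, 8.32% in HFpEF+TYA-018 and 12.4% in HFpEF+SGLT2i. These shares overlapped between groups, with ranges of 5.10 to 12.1%, 6.86 to 14.7%, 6.84 to 14.0% and 9.32 to 22.8%.

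**Figure D2:**
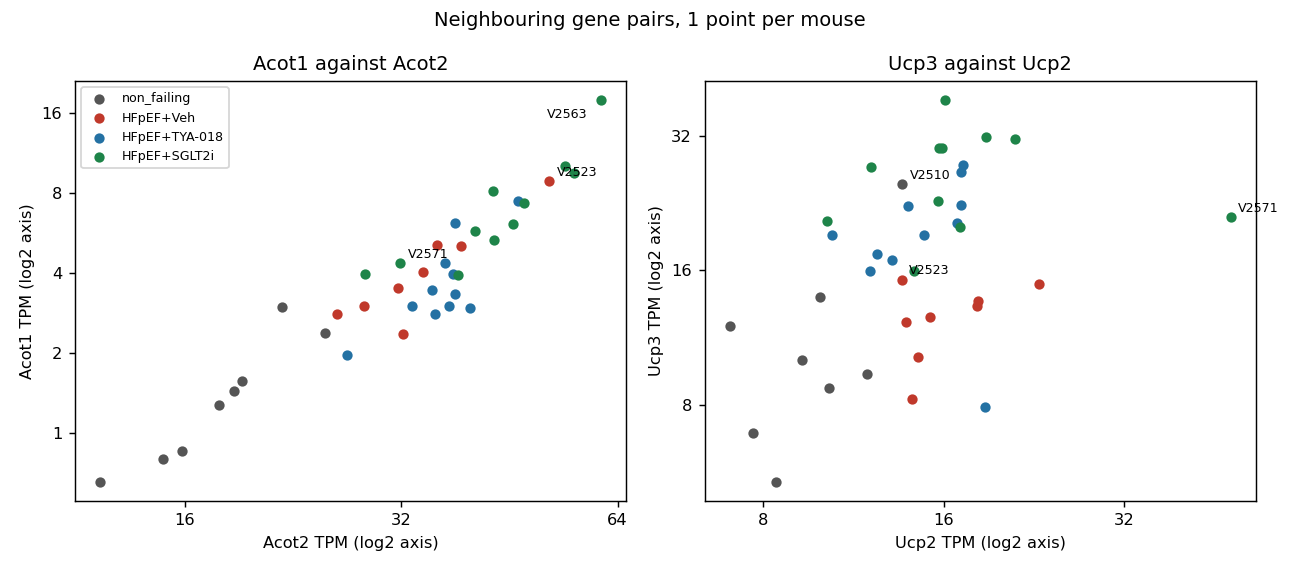
TPM of Acot1 against Acot2 (left) and of Ucp3 against Ucp2 (right), both axes on a log2 scale, with 1 point per mouse coloured by group and a few mice named. Acot1 follows Acot2 (log2 CPM, r = 0.87 within groups and 0.93 over all 38 libraries). Ucp3 follows Ucp2 less closely (r = 0.12 within groups and 0.42 over all).

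Acot13 was the only thioesterase called between TYA-018 and vehicle, and it was not called between TYA-018 and non_failing (adjusted p 0.225). It ranged from 253 to 322 TPM in non_failing (median 293 TPM), from 250 to 290 TPM in HFpEF+Veh (median 264 TPM), from 253 to 350 TPM in HFpEF+TYA-018 (median 319 TPM) and from 221 to 338 TPM in HFpEF+SGLT2i (median 304 TPM). All groups overlapped, but 8 of 11 TYA-018 mice and 6 of 11 empagliflozin mice lay above every vehicle mouse, and all 8 vehicle mice lay below the non_failing mean. The difference under TYA-018 was small, 1.28-fold (log2 fold change 0.36, SE 0.08, 95% interval 0.19 to 0.52, edgeR adjusted p 0.0119), and was 0.36 without V2523 (adjusted p 0.0332). It kept its call in all 38 fits that left out 1 library.

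The call of Acot13 depended on the scaling and the test. With library size alone the log2 fold change under TYA-018 was 0.23 (adjusted p 0.0564), in a fit where the median over all genes was -0.14 in place of -0.01, and with limma on log2(TPM + 1) it was 0.21 (adjusted p 0.0669). Empagliflozin against vehicle gave 0.15 (95% interval -0.01 to 0.32, adjusted p 0.532), and HFpEF+Veh against non_failing -0.19 (95% interval -0.37 to -0.02, adjusted p 0.262), with the same 2 values, to 2 decimals, without V2523. The drugs differed by 0.20 (95% interval 0.05 to 0.35, adjusted p 0.209). Within groups Acot13 went with the summed brown adipocyte list at a Pearson r of 0.64 and with the skeletal muscle list at 0.54 (38 libraries). The brown adipocyte sum had medians of 3480, 3440, 3461 and 3247 TPM in non_failing mice and under vehicle, TYA-018 and empagliflozin, with Ucp1, its defining marker, at a median of 0 TPM in each group and at most 5 counts in a library. Between TYA-018 and vehicle 8 of 10 cardiomyocyte markers had a log2 fold change above 0 (median 0.18, 5 at an unadjusted p under 0.05), and all 8 fibroblast markers (median -0.23, 3 at an unadjusted p under 0.05) and all 8 endothelial markers (median -0.13, 2 at an unadjusted p under 0.05) had one below 0, with 0 called in these 3 lists. The r of Acot13 with the cardiomyocyte sum was 0.36. The part of these cell types in the Acot13 result was not tested.

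Acot7 and Acot9 were called in none of the 6 comparisons. Acot7 had medians of 26.9 TPM in non_failing, 26.7 TPM under vehicle, 28.5 TPM under TYA-018 and 29.9 TPM under empagliflozin, within a range of 19.5 to 35.1 TPM over all mice. Its largest log2 fold change was 0.22 for TYA-018 against vehicle (95% interval 0.05 to 0.39, adjusted p 0.146). This was 0.26 without V2523 (adjusted p 0.0910), 0.089 with library size alone and 0.054 with limma on log2(TPM + 1). Acot9 had medians of 9.30, 9.87, 8.10 and 8.92 TPM in the same order. Its log2 fold changes lay between -0.08 and 0.04, with intervals that stayed within -0.23 to 0.20. The value of -0.08 for TYA-018 against vehicle was -0.09 without V2523, -0.21 with library size alone and -0.23 with limma on log2(TPM + 1) (adjusted p 0.586, 0.527, 0.0834 and 0.142). The level of Acot9 went with the macrophage and leukocyte marker sum within groups at a Pearson r of 0.48, and that of Acot7 with the cardiomyocyte sum at 0.69 (38 libraries). Acot9 shares 28.0% of its 31-base words with Acot10, a gene with a single exonic block that had at most 3.30 counts in a library.

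**Figure D3:**
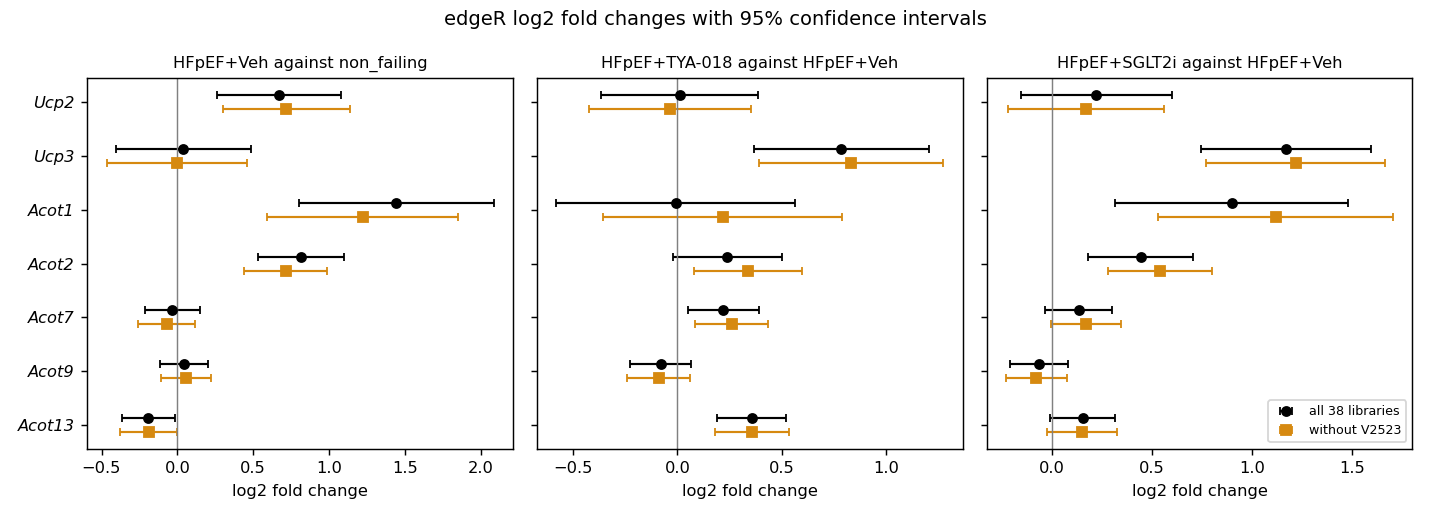
edgeR log2 fold changes (x axes) of the 7 members (y axis) with 95% confidence intervals for HFpEF+Veh against non_failing (left), HFpEF+TYA-018 against HFpEF+Veh (middle) and HFpEF+SGLT2i against HFpEF+Veh (right), from all 38 libraries (black circles) and without V2523 (orange squares). With all libraries the called differences are Acot1 and Acot2 in the left panel at 1.44 and 0.81, Ucp3 and Acot13 in the middle at 0.79 and 0.36, and Ucp3 on the right at 1.17. Black intervals that leave out 0 without a call are those of Ucp2 and Acot13 on the left, Acot7 in the middle, and Acot1 and Acot2 on the right.

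Counted over the members, 2 of 7 (Acot1 and Acot2, both higher) were called between HFpEF+Veh and non_failing, where 3.15% of all genes tested were called and 1.77% were called higher. Between HFpEF+TYA-018 and HFpEF+Veh 2 of 7 were called (Ucp3 and Acot13, both higher), against 1.93% of all genes and 0.835% called higher. Between HFpEF+SGLT2i and HFpEF+Veh 1 of 7 was called (Ucp3), against 0.85% of all genes and 0.131% called higher. Since the members were chosen for such differences, nothing is read from these shares. The same 4 genes, Ucp2, Ucp3, Acot1 and Acot2, were called higher in both treated groups against non_failing, where 7.39% (TYA-018) and 6.45% (empagliflozin) of all genes were called, and 4% and 3.46% were called higher. Between the drugs 0 members were called by edgeR, as was 0% of all genes, with 3 members at an unadjusted p under 0.05 (Acot1, Acot13 and Ucp3) and 1 member called by DESeq2 (Acot1), which called 1.75% of the 10562 genes it gave an adjusted p. The median log2 fold change of the members was 0.04, 0.22 and 0.22 in the first 3 comparisons, against 0.01, -0.01 and 0.01 for all genes.

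The rest of both families gave few calls. Of 6 genes of the uncoupling protein family, counting the carriers Slc25a27, Slc25a14 and Slc25a30, 5 were tested, and the 3 carriers were called in none of the 6 comparisons. Their group medians were 2.18 to 2.35 TPM for Slc25a27, 0.790 to 1.13 TPM for Slc25a14 and 2.63 to 3.05 TPM for Slc25a30. Of 17 thioesterase genes 12 were tested. Acot4 and Acot3, which lie next to Acot1 and are peroxisomal enzymes, were low and had higher medians in the HFpEF groups than in non_failing. Acot4 had group medians of 0.162, 0.276, 0.310 and 0.345 TPM and Acot3 of 0.130, 0.290, 0.311 and 0.323 TPM in non_failing mice and under vehicle, TYA-018 and empagliflozin.

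Acot4 was not called between HFpEF+Veh and non_failing (log2 fold change 0.62, adjusted p 0.0824) but was called against non_failing under TYA-018 (0.78, adjusted p 0.00763) and empagliflozin (0.98, adjusted p 8.38e-04). Acot3 had 0.74 (adjusted p 0.183), 1.05 (adjusted p 0.0139) and 0.91 (adjusted p 0.0371) in the same comparisons. Without V2523 HFpEF+Veh against non_failing gave 0.53 for Acot4 and 0.48 for Acot3. At most 124 counts of Acot4 and 85.0 counts of Acot3 were seen in a library. In HFpEF+Veh the highest mouse for both was V2523, at 0.847 TPM for Acot4 and 0.725 TPM for Acot3. The peroxisomal thioesterase Acot8 (5.09 to 5.43 TPM), Acot6 (0.782 to 0.821 TPM), Acot11 (2.19 to 2.95 TPM), Them4 (2.36 to 3.37 TPM) and Them6 (4.28 to 5.23 TPM) were called in no comparison with all libraries. Without V2523, its highest vehicle mouse, Them4 was called lower in HFpEF+Veh than in non_failing (log2 fold change -0.52, adjusted p 0.0184, against -0.42 and 0.0896 with it). Acot12 and Them7 were not tested and had highest group means of 0.126 TPM each, that of Acot12 in HFpEF+Veh, where V2523 alone had 0.808 TPM, and Acot5 had no count in any library.

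**Figure D4:**
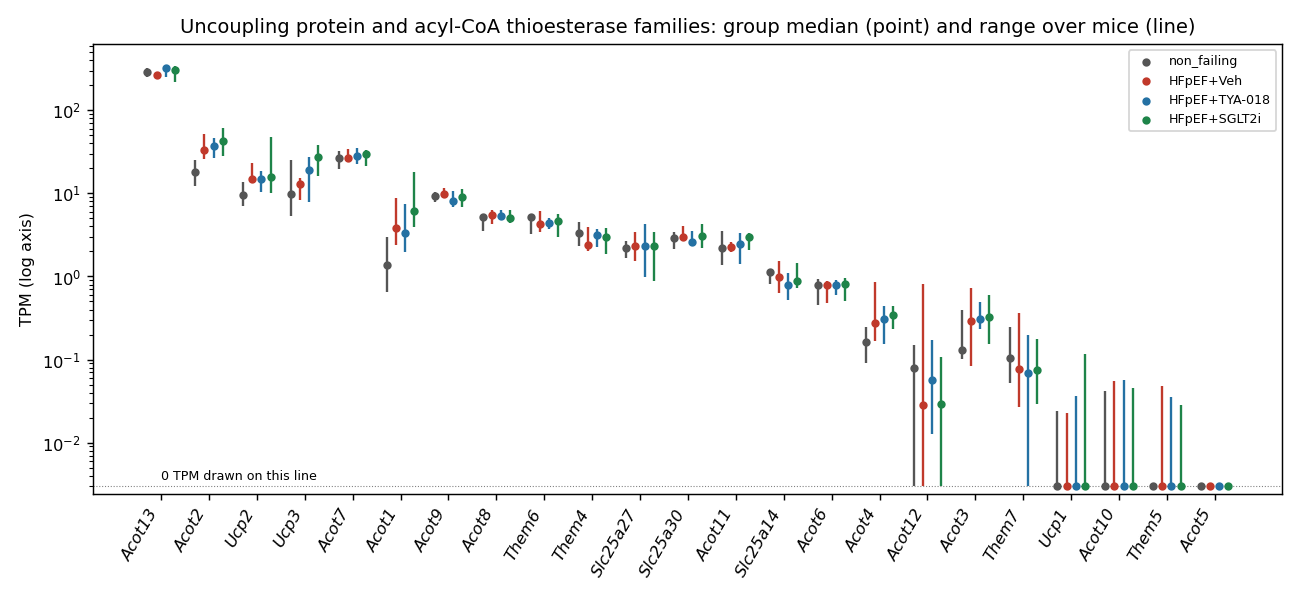
Group median (point) and range over mice (line) of TPM for all 23 genes of the uncoupling protein and acyl-CoA thioesterase families, on a log axis with 0 TPM drawn at the dotted line and genes ordered by their highest value. The 7 members have the 7 highest maxima, led by Acot13, and Ucp1, Acot10, Them5 and Acot5 have medians of 0 TPM.

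Other genes of acyl-CoA and fatty acid handling were counted in lists. Of 23 tested genes of a list of other PPAR targets 22 had a higher level in HFpEF+Veh than in non_failing and 11 were called higher, where 1.77% of all genes were, with a median log2 fold change of 0.42 against 0.01 for all genes. Among them were the oxidation enzyme Ech1 (log2 fold change 0.51, SE 0.09), the carnitine transferase Cpt1b (0.44, SE 0.08) and the lipase inhibitor Angptl4 (1.70, SE 0.33), and without V2523 9 of the list were called. Under TYA-018 0 of the 23 were called against vehicle by edgeR (5 at an unadjusted p under 0.05, 13 without V2523). Under empagliflozin 15 had an unadjusted p under 0.05 against vehicle (18 without V2523) and 1 was called, the pyruvate dehydrogenase kinase Pdk4 (0.86, SE 0.18, adjusted p 0.00865, and 1.00 with adjusted p 0.0264 without V2523). Against non_failing 18 of the 23 were called higher under TYA-018 and 20 under empagliflozin. Of 16 tested acyl-CoA synthetases, which run the reaction opposite to the thioesterases, Acsl6 fell by 0.51 on the log2 scale in HFpEF+Veh (adjusted p 0.0247). Without V2523 2 of this list were called lower in HFpEF+Veh than in non_failing, against 1 with it. The liver-enriched Slc27a2 was called lower than in vehicle, with log2 fold changes of -4.64 under TYA-018 and -4.74 under empagliflozin. Without V2523 0 synthetases were called for either drug against vehicle. Of 13 tested genes of coenzyme A synthesis and breakdown, the mitochondrial CoA diphosphatase Nudt8 was higher under TYA-018 (0.32, SE 0.07, adjusted p 0.0131), and without V2523 the peroxisomal CoA diphosphatase Nudt7 also (0.51, adjusted p 0.0275).

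Carriers that pass protons as well as nucleotides were listed beside the uncoupling proteins. Slc25a4, the heart isoform of the ADP/ATP carrier, was lower in HFpEF+Veh than in non_failing (log2 fold change -0.33, SE 0.09, adjusted p 0.0292) and higher under TYA-018 than in vehicle (0.34, SE 0.08, adjusted p 0.0204), and without V2523 these were -0.36 and 0.37, both called. Of 15 PPAR family receptors and coregulators the retinoid receptor Rxrb was called, higher in HFpEF+Veh than in non_failing (0.24, SE 0.06, adjusted p 0.0231, and 0.26 without V2523). In the cardiomyocyte list 4 of 10 markers were called lower between HFpEF+Veh and non_failing, and the summed level had a median of 34428 TPM in non_failing and 28894 TPM in HFpEF+Veh. The part of this in the members' differences was not tested.

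Within groups, after the group means of log2 CPM, the library-scaled counts, were subtracted, Acot1 and Acot2 had a Pearson r of 0.87 over the 38 libraries. Part of that figure can come from reads divided between them. Ucp2 ran opposite to Acot7 (r = -0.64), Acot2 (-0.62) and Acot1 (-0.54), whereas Ucp3 had values between -0.16 and 0.12 with the other members. HFpEF+SGLT2i V2571 entered the values of Ucp2 with the highest Ucp2 (189 CPM) and the lowest Acot7 (39.0 CPM) of its group. The r values were not computed without it. The adjacent genes Ucp2 and Ucp3 had an r of 0.12. Acot7 went with Acot2 (0.52) and Acot13 (0.44), and Acot7 ran opposite to Acot9 (-0.46). These libraries share their scaling and their mix of cells, so the values describe the libraries.

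**Figure D5:**
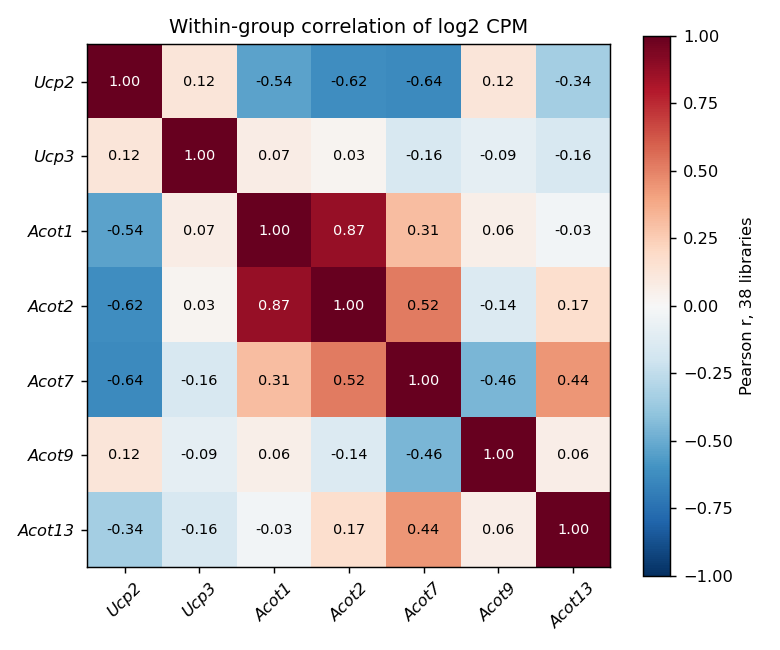
Pearson r of log2 CPM between the 7 members after subtraction of group means, over 38 libraries, with colours from -1 (blue) to 1 (red). The pair Acot1 and Acot2 stands out at 0.87, and Ucp2 is negative with Acot1, Acot2 and Acot7.

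Genes with a high r to each member, taken from the 3 highest among genes other than the members with an average log2 CPM of at least 1, were as follows. Ucp3 was closest to the mitochondrial glutamate carrier Slc25a22 (0.73), the carnitine transferase Cpt1a (0.71) and the carnitine transporter Slc22a5 (0.68). Ucp2 was closest to Hpcal1 (0.84), the endothelial transcription factor Sox17 (0.83) and the receptor Gpr56 (0.82). Acot2 was closest to the acylcarnitine carrier Slc25a20 (0.93), the catalase gene Cat (0.91) and the lipid droplet protein gene Plin5 (0.88). Acot1 was closest to Retsat (0.85), the mitochondrial chaperone Clpx (0.85) and Creg1 (0.83). Acot13 was closest to the mitochondrial ribosomal gene Mrps33 (0.94) and the respiratory chain subunits Ndufa12 (0.92) and Cox6b1 (0.91). Acot7 was closest to Smyd2 (0.83), Nol3 (0.82) and Fn3k (0.82), and Acot9 was close to Ms4a6b (0.69) and Ppp1r2 (0.67).

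The deposited mean effective transcript lengths were also tested for the members. Acot2, with 1 transcript in GENCODE M21, had lengths from 1438 bases (HFpEF+TYA-018 V2555) to 1864 bases (HFpEF+SGLT2i V2562). These lengths thus vary between libraries without a change of transcript, and no transcript usage is read from them. None of the 7 had a called difference in length in any of the 6 comparisons with limma on log2 length, in which 0 genes were called in 5 comparisons and 11% of 13765 between the drugs. With the lengths as an offset in edgeR, the log2 fold change of Ucp3 was 0.77 under TYA-018 (adjusted p 0.0529) and 1.15 under empagliflozin (adjusted p 0.00181).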

How the data were processed

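RNA-seq of left ventricle was analysed in 38 mice in 4 groups. The authors ran Salmon 1.6.0 against GENCODE mouse transcripts (GRCm38) and collapsed the output per gene by tximport. Deposited expected counts are estimated reads per gene, and the deposited TPM values were scaled by the authors per library for transcript length. A deposited table of other values gives the mean effective transcript length in bases, estimated per library. Unmapped columns numbered 0. Labels and methods differ on sex, read layout and length of treatment, and none of these entered a test.

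Rounded counts went through edgeR 4.0.16 (R 4.3.3), quasi-likelihood F test, two-sided, as 1 model of the 4 groups, with filterByExpr (13765 genes kept), TMM factors and Benjamini-Hochberg adjustment over all genes tested. Genes with an adjusted p below 0.05 are termed called. SE is the log2 fold change over the root of F. Alternatives used limma 3.58.1, DESeq2 1.42.0, other scalings and filters, a length offset, and each library left out in turn. Lengths were tested with limma on log2 values, and correlations used log2 CPM with a prior count of 2. The script was tested on simulated data. No mouse number is shared between groups, so nothing was paired. The spread between mice includes the technical spread of 1 library each.

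Members, gene lists and tests were chosen with earlier results of these data known. Besides the members, named genes are the other members of both families with a mean of at least 0.1 TPM in a group, up to 4 called genes of smallest p per list in comparisons with HFpEF+Veh, and the 3 genes most like each member. Some genes that these rules pick are not reported here.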

Additional observations from a re-analysis of the deposited data

Results flagged for a closer look

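In groups of 8 mice the highest or lowest value of a member was compared with the rest by Dixon's ratio, the gap to the nearest value over the whole range, with a limit of 0.526. Of 14 combinations of gene and group 2 passed it, where chance gives about 1 in 20, a rate that does not apply to V2523, which was known to stand apart. Ucp3 in non_failing V2510 was 24.9 TPM, against 5.38 to 13.9 TPM in the other 7 mice (ratio 0.564). The same mouse had the highest endothelial marker sum of its group (639 TPM) and the highest Ucp2 (13.7 TPM). Acot1 in HFpEF+Veh V2523 was 8.89 TPM, against 2.37 to 5.10 TPM in the other 7 (ratio 0.582). This is the library with liver transcripts, and it also had the highest Acot2, Acot7, Acot13 and Ucp3 of its group. The groups of 11 were not compared in this way, and there Ucp2 in HFpEF+SGLT2i V2571 was 48.2 TPM against 10.2 to 21.0 TPM in the other 10 mice. The causes were not tested.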

How the results depend on the processing

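The number of members called between HFpEF+TYA-018 and HFpEF+Veh, 2, was 1 with library size alone, 1 with the length offset, and 0 with limma on log2(TPM + 1) or log2(TPM + 0.1), in fits that called 1096, 192, 42 and 24 of all genes against 266. Between HFpEF+SGLT2i and HFpEF+Veh it was 0 in place of 1 with both limma settings, and between the drugs 1 in place of 0 with DESeq2, which called 185 of all genes there against 0. Leaving out each library in turn gave 2 to 3 members called for HFpEF+Veh against non_failing, 1 to 2 for each drug against vehicle, 0 between the drugs and 4 for both drugs against non_failing, where both limma settings gave 3 for TYA-018. Directions turned only for differences that were not called. Acot7 in HFpEF+Veh against non_failing was 0.040 with library size alone, 0.072 with limma on log2(TPM + 1) and 0.074 on log2(TPM + 0.1). Ucp2 under TYA-018 against vehicle was -0.11 with library size alone, -0.0071 with the length offset, and -0.12 with either pseudocount in limma. Acot13 in HFpEF+SGLT2i against non_failing was 0.019 with both limma settings, and the pair Acot1 and Acot2 summed was 0.21 under TYA-018, where Acot1 alone was -0.01. Leaving out 1 library, values that changed sign ranged from -0.069 to 0.27 (Ucp3) and -0.076 to 0.025 (Acot7) in HFpEF+Veh against non_failing, from -0.034 to 0.089 (Ucp2) and -0.14 to 0.22 (Acot1) under TYA-018 and from -0.025 to 0.30 (Ucp2) under empagliflozin against vehicle, from -0.27 to 0.036 (Ucp2) and -0.057 to 0.011 (Acot9) between the drugs, and from -0.090 to 0.00033 and -0.048 to 0.011 (Acot9) for TYA-018 and empagliflozin against non_failing. Library size alone turned the split of all genes called for TYA-018 against vehicle from 115 higher and 151 lower to 25 and 1071, DESeq2 gave 217 and 185, the fit of only these groups 43 and 15, that without the filter on low counts 126 and 492, and limma 3 and 39 or 3 and 21. All genes called for empagliflozin against vehicle numbered 117, 457 without the filter on low counts, 3 with only these groups in the fit and 0 with limma. Other causes were not tested. No paired analysis was possible because the groups share no mouse numbers. Acot1, Acot3 and Acot4 had as few as 48.5, 6 and 15.0 counts in a library, and the part of depth in their results was not tested.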

Other observations

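Among the genes most like the members, the acylcarnitine carrier Slc25a20 followed Acot2 at r = 0.93 and the catalase gene Cat at 0.91 within groups, closer than Acot1 did at 0.87. These are values over the 38 libraries with group means subtracted, and they come with no test.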
